A study of Caenorhabditis elegans with 12 samples.

Results

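The step from 4 h to 6 h after a heat pulse was examined in Caenorhabditis elegans embryos that carried hlh-1 under heat shock control (strain KM267). It set the 3 arrays of the 6 h embryos against the 3 arrays of the 4 h embryos, 6 of the 12 arrays of the series, and took in all 22548 probe sets of the Affymetrix C. elegans array that were not controls. Each sample held about 80 embryos, collected with 1 or 2 cells, kept for 60 min, pulsed for 30 min at 34 °C and then left at room temperature for 6 h or for 4 h before total RNA was isolated. The other 6 arrays held embryos taken 2 h after the pulse and embryos taken before it (0 h). Both groups of the comparison carried the transgene and had received the same pulse, and embryos pulsed without the transgene were not analysed here, so 2 h more of development and 2 h more since the pulse cannot be told apart. The heat shock promoter acts in most cells of the embryo, and whole embryos were used. In such bulk samples, more cells of a type and more RNA per cell cannot be told apart.

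HLH-1 is the nematode member of the MyoD family of basic helix-loop-helix factors, and it works with UNC-120, a serum response factor, and HND-1, a HAND family factor, to specify body wall muscle. Forced expression of such a factor in early blastomeres turns cells of other lineages toward muscle. A muscle cell then builds sarcomeres, in which myosin thick filaments and actin thin filaments are tied to the cell membrane at dense bodies and M-lines, and it installs transmitter receptors, ion channels and a calcium store. Early embryonic cells divide rapidly from a maternal supply of transcripts and leave the division cycle as they differentiate.

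Both rises and falls were common between 4 h and 6 h. Genes of the sarcomere were among the brightest that rose, and genes of cell division were among those that fell. A probe set was tested where its MAS5 signal was above 69.7, the median over arrays of their 40th percentile, on at least 3 of the 12 arrays, which left 18264 probe sets. It was called where the limma adjusted p was under 0.05 and the fold, the ratio of geometric means, was at least 1.7. By this rule 1412 probe sets were raised at 6 h, 7.73% of those tested, and 1532 were lowered, 8.39%. The raised probe sets matched 1182 gene symbols and the lowered ones 1274, and 6 symbols had a probe set in each direction. Among the raised probe sets 858 had all arrays above 69.7, with a median rise of 3.37-fold (quartiles 2.25 and 6.3). Among the lowered probe sets 1251 were measured on all arrays, with a median fall of 2.51-fold (quartiles 2.06 and 3.65). For the remaining 554 raised and 281 lowered probe sets at least 1 array of the dimmer group was at or under 69.7. Their folds are given below as "at least", with those signals set to 69.7. For 203 raised probe sets fewer than 3 of the other 9 arrays were above 69.7, so that they were tested only through the 6 h arrays and had to be higher there, and the same held for 8 lowered probe sets and the 4 h arrays. Of the genes named below, the p-values of myo-3, unc-36, glr-8, let-756 and srp-1 carry this limit. With no such filter 1394 probe sets were raised and 1499 lowered. With each array left out in turn, 840 of the 1412 raised and 1057 of the 1532 lowered probe sets kept their call every time. The 2 groups did not overlap for 1387 of the raised and 1492 of the lowered probe sets. A lack of overlap, where given below, therefore describes a called gene and adds little to its call. Of all tested probe sets 17.9% were higher and 14.7% lower at 6 h without overlap.

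The balance of rises and falls depended on the scaling. The deposited signals put the median log2 change of all tested probe sets at 0.13, whereas scaling every array to 1 median put it at -0.17 with 1023 raised and 2294 lowered, and quantile normalization put it at -0.08 with 1246 and 1730. The share of called probe sets that were raised was 48.0% as deposited, 30.8% after median scaling and 41.9% after quantile normalization. Medians of gene lists are therefore given relative to the median log2 change of all genes, 0.12 over 14041 genes with 1 probe set each, of which 7.85% were raised and 8.65% lowered. The 6 h arrays had median signals of 112.4 to 140.8 and 14026 to 15109 probe sets above 69.7, against 97.2 to 112.5 and 13131 to 13934 for the 4 h arrays. Log2 signals of replicate arrays correlated with r of 0.835 to 0.850 at 6 h and 0.856 to 0.863 at 4 h, and the number of arrays, 3 a group, limits the precision of every value below. The ratio of 3′ to 5′ control signals for GAPDH was 47.3 on 6 h replicate A, against 8.33 and 9.43 on the other 6 h arrays and 9.828 to 16.21 at 4 h. The actin and ubiquitin controls did not show such a ratio on 6 h replicate A. For actin this array had 7.827, against 5.128 to 10.03 at 4 h. For ubiquitin it had 10.31, against 12.42 to 16.46 at 4 h. The other 6 h arrays had 6.039 and 5.291 for actin and 13.11 and 10.92 for ubiquitin. The part of the GAPDH ratio in the results was not tested beyond leaving 6 h replicate A out.

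**Figure D1:**
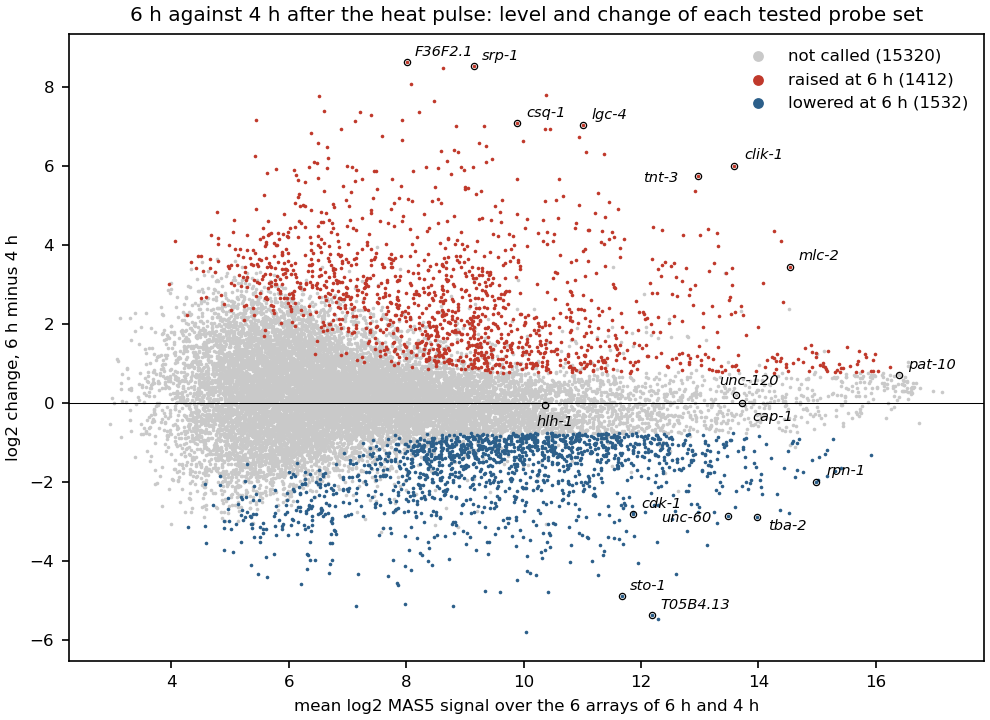
Each point is 1 of the 18264 tested probe sets, with its mean log2 MAS5 signal over the 6 arrays on the horizontal axis and its log2 change, 6 h minus 4 h, on the vertical axis. The 1412 raised probe sets (red) reach further from 0 than the 1532 lowered ones (blue), and several muscle genes, such as tnt-3, clik-1 and mlc-2, lie at the bright end.

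The thick filament genes rose almost without exception. Of 15 tested genes of the thick filament and M-line 13 were raised and none lowered (12 or fewer without any 1 array, never under 10), and the median of the list lay 3.0 above that of all genes on the log2 scale. The light chains of body wall muscle myosin were the brightest. mlc-2, a regulatory light chain, had signals on replicates A, B and C of 93979.9, 74657 and 70298 at 6 h, against 8003, 6136 and 7726 at 4 h (10.9-fold, adjusted p = 4.2e-04). Its near-identical copy mlc-1 had 34177, 36780.2 and 35903 at 6 h, against 1911, 1236 and 2842 at 4 h (18.9-fold, adjusted p = 1.3e-09), and the array may not keep the pair apart. Both genes were high on every 6 h array with no overlap.

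The heavy chains started lower. myo-3, the heavy chain at the middle of the thick filament, had 1310.5, 2823 and 866 at 6 h, against 81.3, 156 and 30.6 at 4 h, a rise of at least 15.4-fold (log2 change 4.34, SE 0.88, adjusted p = 0.0011). unc-54, the major heavy chain, had 1236, 3855 and 1626 at 6 h, against 346, 169 and 199.6 at 4 h (8.72-fold, adjusted p = 0.012). The call for unc-54 was lost without 4 h replicate B, where the log2 change was 2.91 and the adjusted p 0.0534. unc-15, which encodes the paramyosin core of the filament, had 1106, 5999.9 and 1536 at 6 h, against 150.3, 137 and 171 at 4 h, and its rise of 14.2-fold became 8.56-fold without 6 h replicate B, the brightest array for this gene. In all these genes the 3 signals of 6 h lay above the 3 of 4 h.

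Proteins that anchor and extend the filament moved with it. unc-98, an M-line zinc finger protein, had 14923, 20883 and 23179.8 at 6 h, against 2016, 1242 and 2179.6 at 4 h (11-fold, adjusted p = 1.1e-08). ketn-1, the titin-like kettin that links the filaments, had 2596, 6398 and 2369.5 at 6 h, against 416.8, 178.5 and 163.4 at 4 h (14.8-fold, adjusted p = 3.1e-06). The M-line kinase gene unc-82 had 2223, 2531 and 2196 at 6 h, against 372, 230.0 and 394 at 4 h (7.16-fold), and the myosin chaperone gene unc-45 had 1517, 1723 and 854 at 6 h, against 329, 316 and 402 at 4 h (3.76-fold). The groups did not overlap for any of these 4 genes. The giant protein gene unc-22, which encodes twitchin, was not called and had 101.2, 64.9 and 86.7 at 6 h, against 70.8, 117 and 109.8 at 4 h, near the level of 69.7 in both groups.

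The thin filament split into genes that rose late and genes that were already high at 4 h. Of 30 tested genes of the thin filament and actin regulation 12 were raised and 1 lowered, and the median of the list lay 0.92 above that of all genes. The raised count was 8 after median scaling and 9 without 6 h replicate B. Troponin T ties the troponin complex to tropomyosin. The troponin T gene tnt-3 had 50079.5, 67194 and 59112 at 6 h, against 1572, 636 and 1296 at 4 h (53.5-fold, adjusted p = 0.0018), and mup-2, the troponin T of body wall muscle, had 11428, 11931 and 11821 at 6 h, against 549.5, 533 and 1013 at 4 h (17.6-fold, adjusted p = 5.0e-04). The tropomyosin gene lev-11 had 7016, 20164 and 14546 at 6 h, against 662, 536 and 959 at 4 h (18.2-fold, adjusted p = 4.9e-05). All 3 genes were well above 69.7 at 4 h already and showed no overlap between the groups.

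Genes for proteins that bundle or cap actin rose from lower signals. unc-87, a calponin-like actin bundling protein, had 5050.2, 5316 and 5297 at 6 h, against 19.9, 32.7 and 106 at 4 h (at least 65.2-fold, adjusted p = 1.2e-07). The tropomodulin gene tmd-2, whose product caps the pointed end of the filament, had 4750.4, 5842 and 3701 at 6 h, against 139.7, 88 and 192 at 4 h (35.2-fold), and the gelsolin-like gene gsnl-1 had 13269.6, 13008 and 14748 at 6 h, against 592, 398 and 612 at 4 h (26.1-fold). The coronin gene cor-1 had 1401, 2009 and 1759.8 at 6 h, against 102, 284 and 209.7 at 4 h (9.36-fold). In each of these genes the lowest 6 h array exceeded the highest 4 h array.

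In contrast, troponin C and the capping proteins were not called. pat-10, the body wall troponin C, had 99307, 139405 and 96766 at 6 h, against 83616, 70993 and 53335 at 4 h, and its log2 change of 0.69 carried an SE of 0.83 (adjusted p = 0.67) although the groups did not overlap. Its replicates at 0 h differed widely, with signals of 1879.9, 187 and 148, and these arrays share the estimate of the spread. The muscle troponin I gene unc-27 had 27442, 16667 and 16712 at 6 h, against 15309.7, 14506 and 10590.4 at 4 h (adjusted p = 0.13). cap-1, which encodes a barbed end capping subunit, had 15981, 13256 and 11614 at 6 h, against 13717, 15281 and 11588 at 4 h with a log2 change of 0.01, and the groups overlapped. unc-60, which encodes actin depolymerizing factor in 2 isoforms from 1 locus, was the single member called lower: its brightest probe set had 5422, 4379.5 and 3242 at 6 h, against 29796, 34382 and 28952 at 4 h (a fall of 7.28-fold, adjusted p = 1.9e-09). Of its 5 probe sets 4 fell and 1 rose 4.09-fold, with 8452, 11731 and 15432 at 6 h, against 2998, 2575 and 2893 at 4 h, so the locus changed in both directions.

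Dense body and integrin attachment genes rose in part. Of 17 tested genes 7 were raised and none lowered, with a median 0.95 above that of all genes. The raised count was 5 after median scaling or without 4 h replicate B, and 8 without 6 h replicate A. deb-1, which encodes vinculin, had 1169.6, 1916 and 1638 at 6 h, against 37.3, 174 and 127 at 4 h (at least 13.4-fold, adjusted p = 0.0014). zyx-1, a zyxin-like LIM protein of dense bodies, had 1021, 1432 and 785 at 6 h, against 132, 137 and 90.9 at 4 h (8.88-fold), and the kindlin gene unc-112 had 2284, 3494 and 5253 at 6 h, against 719.8, 549 and 914 at 4 h (4.88-fold, adjusted p = 5.9e-06). dim-1, an immunoglobulin repeat protein at the muscle membrane, was the brightest with 51597, 64862 and 44781 at 6 h, against 9568, 8299.9 and 9135 at 4 h (5.91-fold, adjusted p = 3.2e-08). Members of the core adhesion were bright in both groups. The PINCH gene unc-97 had 22109, 23817 and 18229.7 at 6 h, against 16974, 23187 and 16658 at 4 h (log2 change 0.18, adjusted p = 0.66), with overlap, and the β-integrin gene pat-3 had 2477, 3598 and 2949 at 6 h, against 1904, 1852 and 2255 at 4 h (log2 change 0.57, adjusted p = 0.065), without overlap.

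The dystrophin complex spans the muscle membrane and holds dystrobrevin, syntrophins and sarcoglycans. Of 11 tested genes 7 were raised and none lowered, also without any 1 array, and the median lay 2.95 above that of all genes. The γ/δ-sarcoglycan gene sgn-1 had 46916, 49748 and 52253 at 6 h, against 1436, 1006 and 1246 at 4 h (40.8-fold, adjusted p = 0.0042). The α-sarcoglycan gene sgca-1 had 13198, 16630.4 and 14018 at 6 h, against 159, 77.8 and 135 at 4 h (122-fold) on the brighter of the 2 probe sets called for it, and the β-sarcoglycan gene sgcb-1 had 12937, 25250.3 and 21567 at 6 h, against 2667, 2185 and 2028 at 4 h (8.41-fold). The syntrophin gene stn-2 had 10499, 9889 and 9687 at 6 h, against 563, 325 and 604 at 4 h (20.9-fold), against 3.57-fold for its relative stn-1, whose signals were 5015, 4915 and 5742 at 6 h, against 1319, 1394 and 1690.3 at 4 h. No groups overlapped in these 5 genes. The dystrobrevin gene dyb-1 was not called and had 85.6, 137 and 212 at 6 h, against 122, 102 and 108 at 4 h, with overlap.

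Receptors that receive motor neuron signals were mostly raised at this step. Of 16 tested genes of the neuromuscular junction 11 were raised and none lowered, and the median lay 2.39 above that of all genes. The count was 7 without 6 h replicate B. Subunits of the levamisole-sensitive acetylcholine receptor rose together: unc-38 had 3069.7, 4185 and 4563 at 6 h, against 146, 236 and 260.1 at 4 h (18.7-fold, adjusted p = 5.5e-09), lev-8 had 5029.7, 5107 and 5986 at 6 h, against 303.8, 105.2 and 305.2 at 4 h (25.07-fold, adjusted p = 6.9e-07) and lev-1 had 979.6, 768 and 1225 at 6 h, against 221.6, 168.7 and 291.1 at 4 h (4.39-fold, adjusted p = 0.0086). The glutamate receptor gene glr-8 was at or under 69.7 on every 4 h array and had 2110.4, 2058 and 2158 at 6 h, against 11.3, 12.5 and 17.7 at 4 h (at least 30.2-fold, adjusted p = 1.5e-06). unc-49, the GABA receptor of body wall muscle, had 395, 490.5 and 429.8 at 6 h, against 53.1, 128.8 and 60.8 at 4 h (at least 5.11-fold, adjusted p = 0.011). ric-3, a chaperone for acetylcholine receptors, was already bright with 14258, 12539 and 9946 at 6 h, against 6002, 4748 and 6529 at 4 h (2.12-fold). The nicotinic receptor gene acr-16 was not called, with 24.5, 4.4 and 73.4 at 6 h, against 20, 4.3 and 7 at 4 h, and only 1 of its 6 signals was above 69.7.

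Rises were also called in the calcium store and the channels of the muscle membrane. Of 37 tested genes of excitation and calcium handling 16 were raised (12 without 6 h replicate B) and 2 lowered, with a median 1.63 above that of all genes. Calsequestrin, which holds calcium in the sarcoplasmic reticulum, is encoded by csq-1, with 12042, 9930.3 and 11391 at 6 h, against 139, 38.3 and 102 at 4 h (at least 111-fold, adjusted p = 1.8e-09). unc-68, the ryanodine receptor that releases it, had 2960.4, 3349.9 and 3589 at 6 h, against 241, 277 and 328 at 4 h (11.8-fold, adjusted p = 2.0e-05). Another probe set for unc-68, tested only through the 6 h arrays, was also raised (log2 change 4.60). A further probe set for it, with a log2 change of -0.74, was not called. Among the channels, unc-36, an α2δ subunit of voltage-gated calcium channels, had 977, 900.3 and 790.1 at 6 h, against 6.9, 7.2 and 9.6 at 4 h (at least 12.7-fold, adjusted p = 5.2e-05), so that it was above 69.7 at 6 h alone. The potassium channel genes twk-18 and sup-9 also rose. twk-18 had 3389, 3447 and 2973 at 6 h, against 333, 218 and 363 at 4 h (10.9-fold, adjusted p = 1.3e-05), and sup-9 had 5308, 5233 and 8057 at 6 h, against 429.9, 159 and 399.9 at 4 h (20.2-fold, adjusted p = 1.3e-06). The 2 members called lower were the calmodulin gene cmd-1 and sca-1, the calcium pump of the reticulum, and neither call held when single arrays were left out. The call for sca-1 was lost without each array other than 6 h replicate A (adjusted p of 0.0693 to 0.151), and that for cmd-1 without 6 h replicate C, 4 h replicate B or 4 h replicate C (0.116 to 0.147). For sca-1 the probe sets went against each other: the brightest had 399, 342 and 289 at 6 h, against 751, 579.9 and 674 at 4 h (a fall of 1.95-fold), while another rose 7.45-fold, with 1534, 2459 and 1056 at 6 h, against 152, 255 and 249 at 4 h.

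Regulators of the muscle fate were called at shares near those of all genes (7.85% raised and 8.65% lowered). Of 17 tested myogenic regulators 1 was raised (5.88%) and 2 lowered (11.8%), with a median 0.32 below that of all genes. hlh-1 had 861, 1519.6 and 1652 at 6 h, against 1552, 1179 and 1342 at 4 h (log2 change -0.06, SE 0.28, adjusted p = 0.92), and unc-120 had 13646, 11629 and 15460.5 at 6 h, against 13520.5, 10521 and 11333 at 4 h (log2 change 0.20, SE 0.20, adjusted p = 0.58). Both overlapped between the groups, whereas the mean signals of hlh-1 at 0, 2, 4 and 6 h were 248, 3503, 1357 and 1344 and those of unc-120 162, 838, 11790 and 13580. The sources used here do not say whether the probe set for hlh-1 reads the transgene as well as the endogenous gene. hnd-1 had 240.8, 244.2 and 122.9 at 6 h, against 722, 743 and 454 at 4 h (log2 change -1.69, adjusted p = 0.07), which passed the threshold after either other scaling (adjusted p = 0.0087 and 0.0376) and with the 6 arrays alone (0.0015), and its means at the 4 times were 16520, 1966, 639.5 and 203.

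The single regulator raised was ceh-34, a homeobox gene of the sine oculis family with roles in pharyngeal and mesodermal cells. It had 6672, 23818 and 30995 at 6 h, against 454, 646 and 629.7 at 4 h (29.9-fold, adjusted p = 0.012), and the fold was 47.7 without 6 h replicate A. sys-1, which encodes a β-catenin, had 80.6, 134 and 169 at 6 h, against 289, 404 and 295 at 4 h (a fall of 2.67-fold, adjusted p = 0.0068). hlh-2, which encodes the E protein partner of many helix-loop-helix factors, was called lower, but the call was lost without any 1 of the 4 h arrays (adjusted p of 0.0764 to 0.0816).

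A further list held transcription factor genes that the study named as enriched in muscle cells sorted from embryos, which are other samples than these. Of 32 tested members 9 were raised (28.1%) and 3 lowered (9.38%, near the 8.65% of all genes). The RUNX gene rnt-1 had 4297, 4655 and 5183 at 6 h, against 554.1, 478.1 and 394.3 at 4 h (9.97-fold, adjusted p = 2.1e-08), and the bZIP gene atf-4 had 28484, 28585 and 32688 at 6 h, against 4759, 3738 and 5593 at 4 h (6.44-fold, adjusted p = 3.7e-08). ceh-13, the labial-like Hox gene, had 5838, 5275 and 5834 at 6 h, against 1415, 942 and 917 at 4 h (5.28-fold, adjusted p = 2.0e-04), after a mean of 2137 at 0 h and 62 at 2 h. None of the 3 overlapped between the groups.

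Over the whole time course the genes that changed at this step differed in where they started. The probe sets raised at 6 h had median signals of 130.7, 136.8, 196.7 and 1031 at 0, 2, 4 and 6 h, against 126.5, 133.9, 137.6 and 167.9 for all tested. Those lowered had 1261, 1907, 1321 and 451.3. At 0 h 55.2% of the raised probe sets and 91.3% of the lowered ones were above 69.7 on all 3 arrays, against 53.4% of all tested. The 4 h and 6 h values entered the calls, while the 0 h and 2 h signals entered the estimate of the spread and, by the rule of 3 arrays above 69.7, also the choice of which probe sets were tested. Among muscle genes the times of the main rise differed: pat-10 had means of 738, 501, 69310 and 111800, mlc-2 of 158, 151, 7288 and 79640, tnt-3 of 17, 30.7, 1168 and 58790 and myo-3 of 8.2, 10.2, 89.2 and 1666.

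**Figure D2:**
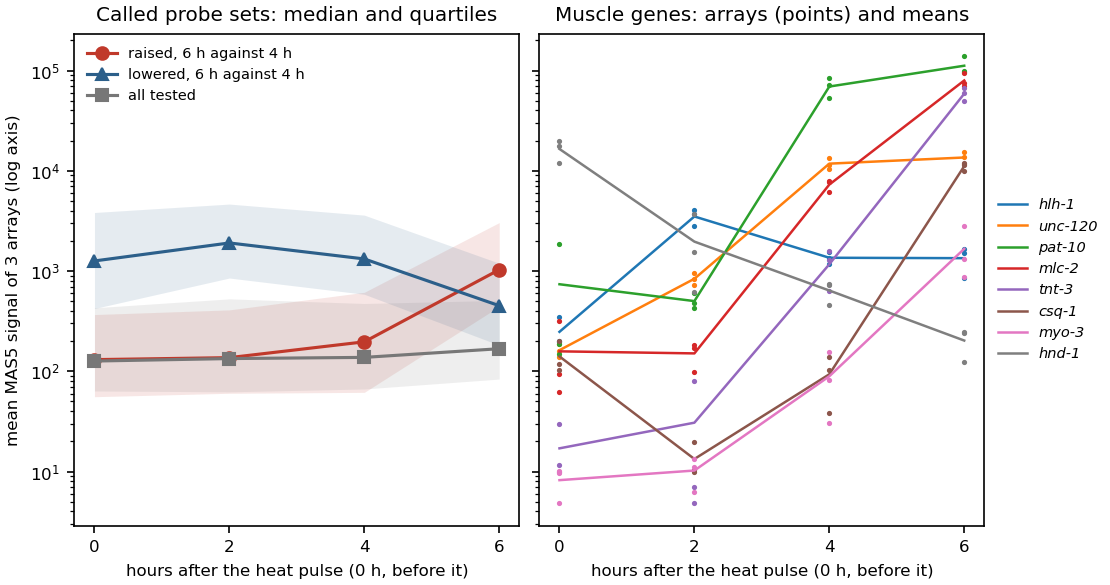
Left, the median and quartiles of the mean MAS5 signal of 3 arrays (log axis) at 0, 2, 4 and 6 h for the raised (red), lowered (blue) and all tested probe sets (grey); right, single arrays as points and means as lines for 8 muscle genes. The raised set stays near all tested until 2 h, and pat-10 and unc-120 reach their high signals at 4 h, while tnt-3, csq-1 and myo-3 are highest at 6 h.

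The largest rises outside the muscle lists included genes of secreted and membrane proteins. The gene with the largest measured fold was lgc-4, a predicted ligand-gated ion channel, with 17715, 30473 and 24391 at 6 h, against 201, 321 and 91.1 at 4 h (131-fold, adjusted p = 4.0e-09). The transthyretin-related gene ttr-48 had 17767, 22118 and 21125 at 6 h, against 265.8, 103.2 and 256.7 at 4 h (106-fold, adjusted p = 8.9e-11). Among bounds, the serpin gene srp-1 had 8288, 11649 and 13324 at 6 h, against 33.9, 18.9 and 40.4 at 4 h (at least 156-fold, adjusted p = 5.5e-07). The calponin-like gene clik-1 was among the brightest of the array, with 88114, 117297 and 92614 at 6 h, against 1905, 950.3 and 2019 at 4 h (64-fold, adjusted p = 0.0041). clhm-1, a CALHM family ion channel, had 8909, 10116 and 11459.9 at 6 h, against 75.1, 67.2 and 216 at 4 h (at least 97.1-fold, adjusted p = 5.4e-09), and the cystatin gene cpi-1 had 5508, 14004 and 17705 at 6 h, against 201, 134 and 395 at 4 h (50.4-fold). The 4 h signals of all 6 genes were far under their lowest 6 h signal.

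Some genes of the matrix between muscle and its neighbours rose, while most were not called. Of 33 tested basement membrane genes 6 were raised (18.2%) and 2 lowered (6.06%, under the 8.65% of all genes). The median of the list lay 0.03 below that of all genes (0.125 above it after quantile normalization). Raised members had some of the largest folds. mig-17, a secreted ADAM protease that muscle supplies to the gonad, had 22898, 19496 and 28773 at 6 h, against 318, 173 and 480.0 at 4 h (78.6-fold, adjusted p = 8.2e-10), and mig-18, which acts with it, had 19206, 17302 and 21236 at 6 h, against 296, 197 and 229 at 4 h (80.7-fold, adjusted p = 0.0022). The papilin gene mig-6 had 2639, 7629 and 3432 at 6 h, against 139, 114 and 139 at 4 h (31.6-fold, adjusted p = 1.1e-04), and nidogen, nid-1, had 17208, 22539.6 and 16981 at 6 h, against 3153, 2212 and 3180.5 at 4 h (6.67-fold, adjusted p = 1.7e-04). The groups were apart in all 4.

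Secreted guidance and growth signals had 13 raised and 1 lowered of 40 tested, with a median 0.92 above that of all genes. The FGF gene let-756 had 316, 436 and 587 at 6 h, against 7, 4.3 and 86.7 at 4 h (at least 5.77-fold, adjusted p = 0.0035). unc-129, a TGF-β family signal that dorsal muscle supplies to growing axons, had 1570.2, 1359.5 and 1322 at 6 h, against 140.0, 59.6 and 169.5 at 4 h (at least 11.9-fold, adjusted p = 9.3e-05). zig-1, which encodes a protein with immunoglobulin domains, had 3756, 3177 and 4802 at 6 h, against 169.8, 139 and 175 at 4 h (24-fold, adjusted p = 1.2e-06). plx-2, a plexin receptor on this list, had 968, 1169 and 847 at 6 h, against 141, 296 and 183 at 4 h (5-fold).

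**Figure D3:**
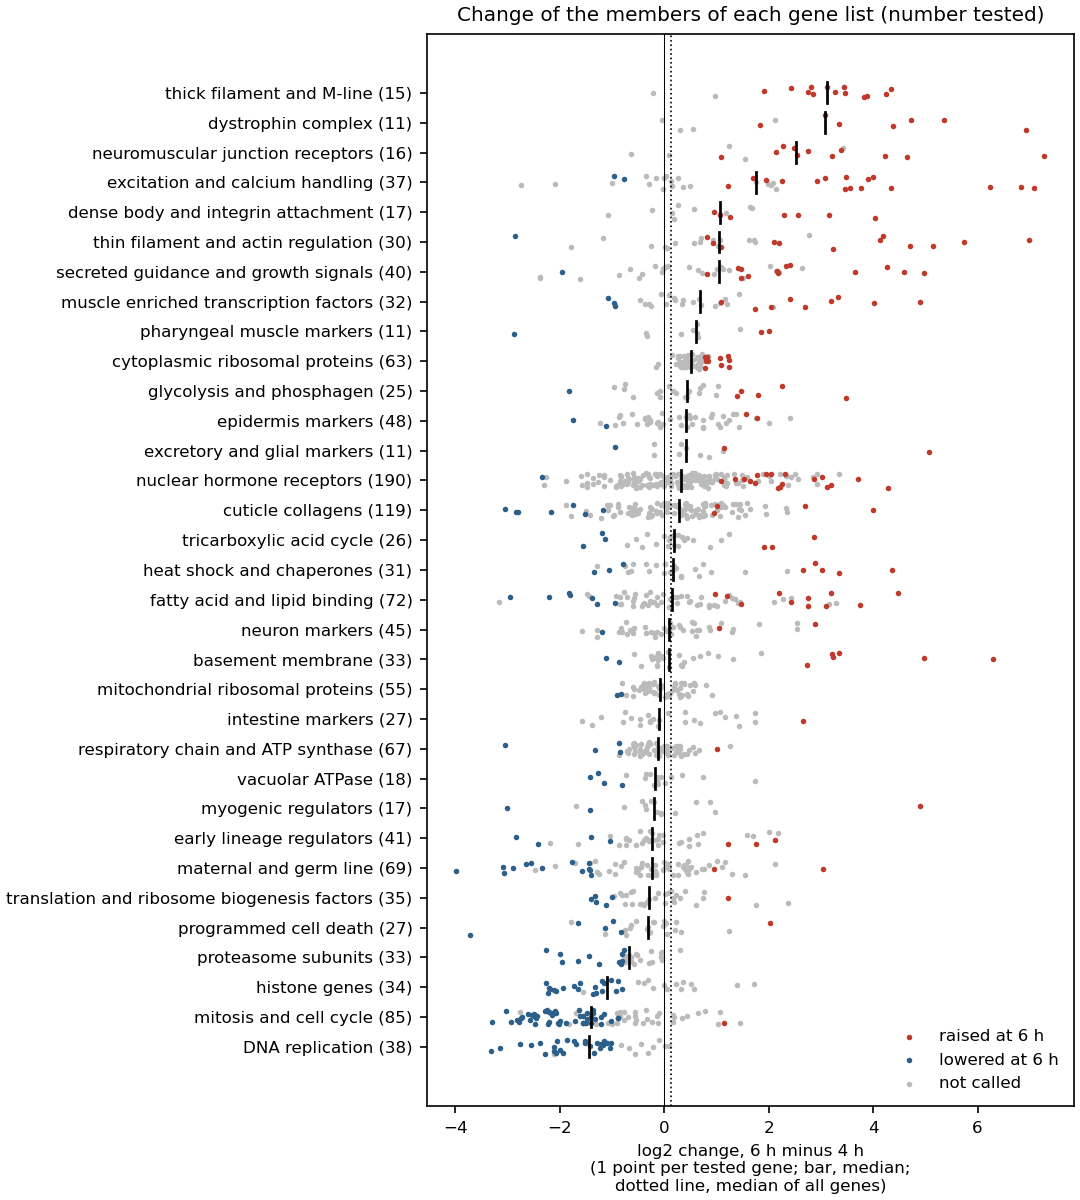
Log2 change, 6 h minus 4 h, of every tested member of the 33 gene lists, 1 point a gene, coloured by its call, with a bar at the median of each list and a dotted line at 0.12, the median of all genes. Muscle structure and receptor lists lie at the top with medians up to 3.12, and histones, mitosis and DNA replication lie at the bottom, down to -1.45.

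Few markers of neurons, intestine and epidermis were called (over all genes 7.85% were raised and 8.65% lowered). Of 45 tested neuron markers 2 were raised (4.44%) and 1 lowered (2.22%). Of 27 intestine markers 1 was raised (3.7%) and none lowered, and of 48 epidermis markers 2 were raised and 2 lowered (4.17% each). With single arrays left out, 0 to 2 intestine and 1 to 4 epidermis markers were raised. Counts this small do not set these lists apart from all genes. Of 11 pharyngeal muscle markers 2 were raised (18.2%) and 1 lowered (9.09%). Only 1 was raised without 6 h replicate A, 6 h replicate B or 4 h replicate C. These counts are too small to set against the shares of all genes. In the short sets of defining markers, body wall muscle summed to 242023.1 to 305864.6 at 6 h, against 63771.3 to 94317.4 at 4 h, with 6 of 7 raised. At 4 h most of this sum came from pat-10, the member not called. Pharyngeal muscle summed to 1949.6 to 2424.3 at 6 h, against 681.2 to 941.3 at 4 h, with 2 of 6 raised. The largest part of this sum on each array came from tnc-2. The pharyngeal myosin gene myo-2 was not called, with 100.1, 24.5 and 8.4 at 6 h, against 34.9, 25.5 and 47.1 at 4 h. The troponin gene tni-4 was at or under 69.7 on every array of both groups. Neurons summed to 8037 to 11328 at 6 h, against 9270 to 11403 at 4 h, with 1 of 7 raised. Most of the neuron sum came from snb-1, with 8682, 6711 and 5564.5 at 6 h, against 8471, 10340 and 7909 at 4 h, so it says little about the other members. Epidermis summed to 1346 to 2104 at 6 h, against 1356 to 1958 at 4 h, with none of 6 called. The intestine set summed to 258.8 to 677.6 at 6 h, against 417 to 500.8 at 4 h, with none of 4 called. The germ line set summed to 466.9 to 2325 at 6 h, against 972.6 to 1389 at 4 h, with none of 5 called. Its sums at 6 h were 2325 on replicate A, 714.2 on replicate B and 466.9 on replicate C. Replicate A, the array with the high ratio for GAPDH but not for actin or ubiquitin, stood apart. The other 6 h arrays lay under every 4 h array. The sums of the last 4 sets overlapped between the groups.

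Single markers of these types moved with the muscle genes. unc-47, the GABA transporter of synaptic vesicles, had 1339.9, 1294 and 1319 at 6 h, against 284, 218 and 93 at 4 h (7.35-fold, adjusted p = 1.2e-04), and the pharyngeal troponin C gene tnc-2 had 941, 1611 and 1113 at 6 h, against 281, 358 and 261 at 4 h (4-fold, adjusted p = 3.4e-04). mel-11, a myosin phosphatase subunit that acts in the epidermis during elongation, had 4118, 4966 and 4843 at 6 h, against 1498, 1480.1 and 1699 at 4 h (2.97-fold, adjusted p = 1.0e-05). mec-7, a β-tubulin of touch neurons, went the other way with 1292, 1097 and 859 at 6 h, against 2935, 2058 and 2453 at 4 h (a fall of 2.3-fold, adjusted p = 4.0e-04). Their part in the muscle results was not tested.

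Early lineage regulators were called at shares near those of all genes (7.85% raised and 8.65% lowered). Of 41 tested 3 were raised (7.32%) and 4 lowered (9.76%), with a median 0.36 below that of all genes. die-1, a zinc finger gene of dorsal intercalation, had 439.1, 500.9 and 163.1 at 6 h, against 1683, 1569 and 2111 at 4 h (a fall of 5.38-fold, adjusted p = 7.7e-06), and the T-box gene tbx-11 had 115, 24.4 and 38.8 at 6 h, against 428, 266 and 353 at 4 h (a fall of at least 4.15-fold, adjusted p = 0.0065), after a mean of 22840 at 0 h. ref-1, a Notch-responsive helix-loop-helix gene, rose 3.36-fold, with 586, 569 and 538 at 6 h, against 146, 162 and 199 at 4 h.

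Transcripts of cell division fell as a group. Of 85 tested genes of mitosis and the cell cycle 50 were lowered and 1 raised (46 to 51 lowered without each array in turn), with a median 1.53 below that of all genes. cdk-1, the mitotic kinase, had 1659, 1511 and 1101 at 6 h, against 8818, 9606 and 11298 at 4 h (a fall of 7.03-fold, adjusted p = 6.6e-10), and its partner cyclin gene cyb-3 had 4272, 2166 and 1035 at 6 h, against 16474, 16666 and 15767 at 4 h (a fall of 7.68-fold, adjusted p = 1.2e-04). sas-6, needed to build centrioles, had 382, 261 and 265 at 6 h, against 2347, 2799 and 2248 at 4 h (a fall of 8.24-fold, adjusted p = 1.9e-09). ndc-80, which couples kinetochores to microtubules, had 279.3, 181.9 and 179.5 at 6 h, against 1244, 1391 and 1739 at 4 h (a fall of 6.91-fold, adjusted p = 1.7e-08). In all 4 the highest 6 h signal was under the lowest 4 h signal.

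Among DNA replication genes 27 of 38 were lowered and none raised (21 to 27 lowered without each array in turn, and 22 with the 6 arrays alone), and their median lay 1.57 below that of all genes. The clamp loader gene rfc-4 had 1156, 762 and 531 at 6 h, against 4671, 4886 and 4111 at 4 h (a fall of 5.85-fold, adjusted p = 3.3e-08), and rpa-2, a subunit of the single-strand binding protein, had 5338, 4167 and 4468 at 6 h, against 19624, 26601 and 22242 at 4 h (a fall of 4.89-fold, adjusted p = 9.9e-09). orc-5, of the origin recognition complex, had 364, 349 and 109 at 6 h, against 1464, 1788 and 1626 at 4 h (a fall of 6.75-fold), and the primase gene pri-1 had 205, 115 and 114 at 6 h, against 724, 546 and 951 at 4 h (a fall of 5.2-fold). No array of 6 h reached a 4 h signal in these genes.

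Histone genes fell with them, 20 of 34 tested with none raised and a median 1.22 below that of all genes. The copies of a histone class are near identical and may share probes, so these are not independent genes. The histone variant gene htz-1, which has a sequence of its own, had 7528, 5859 and 7006 at 6 h, against 29724, 36042 and 27082 at 4 h (a fall of 4.54-fold, adjusted p = 4.3e-09), and his-32 had 3600.3, 2688 and 3652 at 6 h, against 15154, 17895 and 13279 at 4 h (a fall of 4.67-fold, adjusted p = 1.4e-08). Both sets of groups were apart.

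Among 69 tested maternal and germ line genes 13 were lowered and 2 raised, with a median 0.36 below that of all genes, and the members that moved included tubulins. The α-tubulin gene tba-2 had 7106, 6188 and 4733 at 6 h, against 39329, 51773 and 42320 at 4 h (a fall of 7.45-fold, adjusted p = 2.8e-10), and the β-tubulin gene tbb-2 had 1530.4, 1405 and 1044 at 6 h, against 6849.5, 7721 and 10673 at 4 h (a fall of 6.31-fold, adjusted p = 1.7e-08), both used for embryonic spindles. mex-3, which encodes an RNA-binding protein of early blastomeres, had 676, 476 and 210.0 at 6 h, against 2418, 4158 and 4109 at 4 h (a fall of 8.49-fold, adjusted p = 1.8e-04). oma-1, an oocyte zinc finger gene, had 154, 23.8 and 46.3 at 6 h, against 686, 894 and 1085 at 4 h (a fall of at least 9.63-fold, adjusted p = 1.5e-04). The list also held glh-3, a germ granule helicase, which rose at least 7.48-fold with 557.1, 755.3 and 1080.9 at 6 h, against 140.4, 53.1 and 111 at 4 h.

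Proteasome subunits that were called fell by smaller amounts. Of 33 tested 11 were lowered and none raised, and 32 had a negative log2 change, with the list median 0.80 below that of all genes. After median scaling 23 were lowered, and 6 were without the trend and robust estimation. rpn-1, a base subunit, had 15669, 15404 and 17946 at 6 h, against 67766, 70707 and 56878 at 4 h (a fall of 3.98-fold, adjusted p = 6.7e-08), after a mean of 268 at 0 h. The core subunit gene pbs-1 had 4108, 2851 and 2935 at 6 h, against 7775, 11011 and 7923 at 4 h (a fall of 2.7-fold, adjusted p = 1.6e-05), and the ATPase gene rpt-3 had 3774, 2777 and 2314 at 6 h, against 6004, 7705 and 6952 at 4 h (a fall of 2.37-fold). These 3 genes had no overlap between the groups.

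Calls among cytoplasmic ribosomal proteins went the other way, with 10 of 63 raised, none lowered and a median 0.39 above that of all genes (0.20 after quantile normalization). The count was 5 after either other scaling, and 6 without 4 h replicate C, 22 without 4 h replicate B and 17 without 6 h replicate C. rpl-30, a protein of the large subunit, had 93881, 100422 and 74705 at 6 h, against 43952, 42471 and 28600.5 at 4 h (2.36-fold, adjusted p = 6.0e-05), and rps-7, of the small subunit, had 10622, 9558 and 9383 at 6 h, against 4166, 4516 and 3844 at 4 h (2.36-fold, adjusted p = 5.1e-05). Of 35 tested translation and ribosome biogenesis factors 1 was raised (2.86%) and 5 lowered (14.3%, against 8.65% of all genes). The lowered count was 11 after median scaling, 8 without 6 h replicate A and 3 without 6 h replicate C. The elongation factor gene eef-2 had 9189, 16239.5 and 8761 at 6 h, against 3758, 4641 and 5917 at 4 h (2.33-fold, adjusted p = 0.0014). One of those lowered, rpa-1, encodes replication protein A rather than a translation factor, and it had 323, 152 and 202 at 6 h, against 505, 406 and 772 at 4 h (a fall of 2.52-fold, adjusted p = 0.0019).

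**Figure D4:**
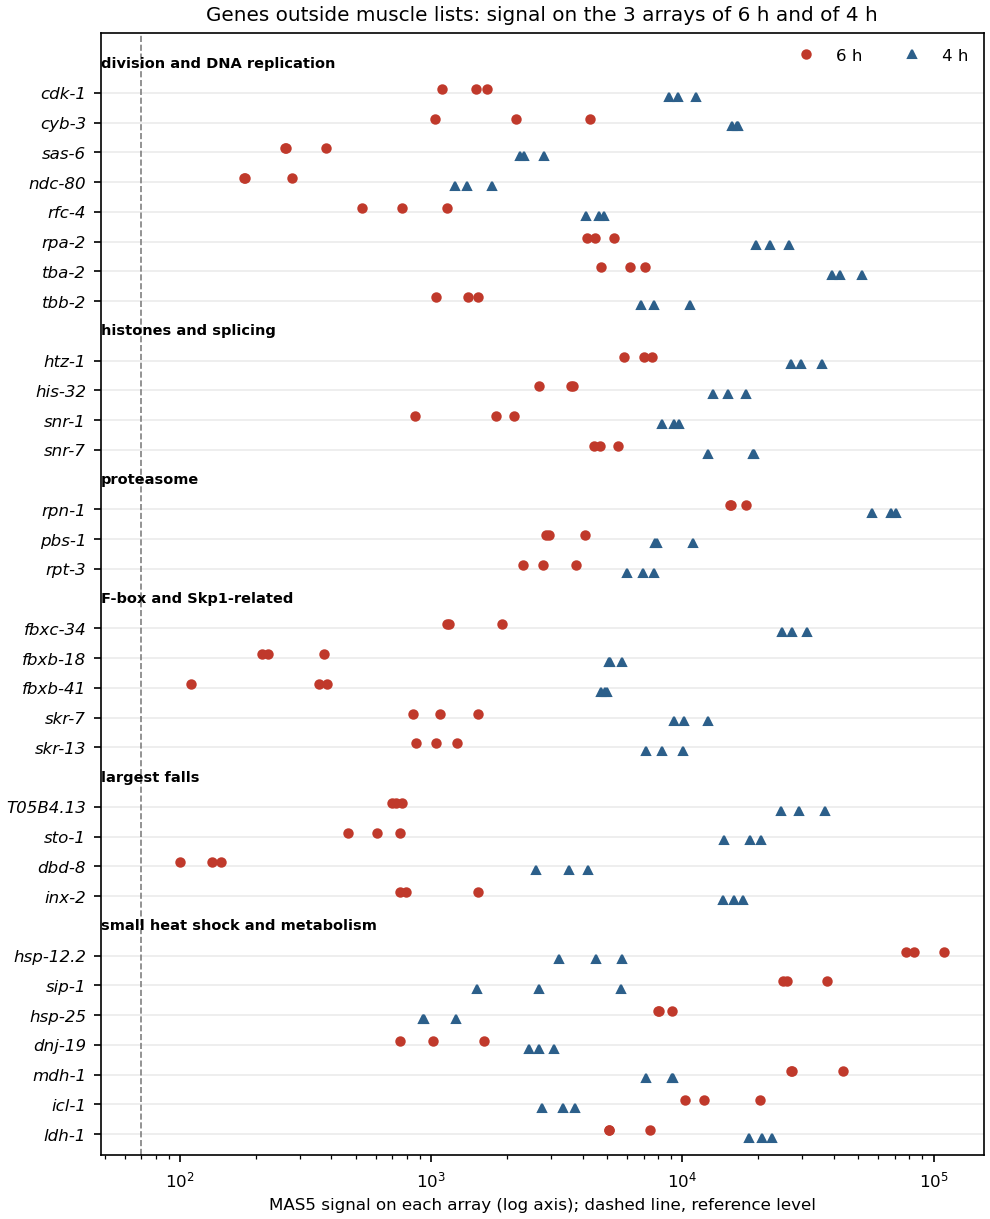
MAS5 signals on a log axis for genes outside the muscle lists, with the 3 arrays of 6 h as red circles, the 3 of 4 h as blue triangles and the reference level of 69.7 as a dashed line. Division, histone, splicing, proteasome, F-box and Skp1-related genes lie lower at 6 h, and 3 small heat shock genes, mdh-1 and icl-1 lie higher.

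Although both groups had received the pulse, some heat shock genes differed between them. Of 31 tested heat shock and chaperone genes 5 were raised (3 without 6 h replicate A) and 3 lowered (6 after median scaling, 1 without 4 h replicate C), with a median 0.05 above that of all genes. The small heat shock gene hsp-12.2 had 77877, 109583 and 83631 at 6 h, against 5746, 3216 and 4524 at 4 h (20.4-fold, adjusted p = 5.9e-05), and hsp-25, expressed in muscle, had 8028, 7998 and 9043 at 6 h, against 929, 937 and 1251 at 4 h (8.11-fold, adjusted p = 1.6e-08). sip-1, a small heat shock protein of embryos, had 37484, 26015 and 25101 at 6 h, against 1523, 5701 and 2681 at 4 h (10.17-fold, adjusted p = 0.0018), and its means over the 4 times were 102400, 2037, 3302 and 29530. Among the lowered genes the DnaJ gene dnj-19 had 1625, 749 and 1013 at 6 h, against 2681, 2449 and 3077 at 4 h (a fall of 2.54-fold, adjusted p = 0.0019). These 4 genes did not overlap between the groups.

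Metabolic genes changed singly. Of 25 tested glycolysis and phosphagen genes 5 were raised (20.0%) and 1 lowered (4.0%). Of 26 genes of the tricarboxylic acid cycle 3 were raised and 3 lowered (11.5% each). Over all genes 7.85% were raised and 8.65% lowered. Lactate dehydrogenase, ldh-1, had 7451, 5104 and 5106 at 6 h, against 18437, 22693 and 20715 at 4 h (a fall of 3.55-fold, adjusted p = 5.5e-07). Of the pyruvate kinases, pyk-1 had 1018, 804 and 776 at 6 h, against 356, 148 and 288 at 4 h (3.47-fold, adjusted p = 5.0e-04) and pyk-2 had 1179.9, 1036 and 778 at 6 h, against 202.2, 104.3 and 32.5 at 4 h (at least 8.65-fold, adjusted p = 4.9e-05). mdh-1, a malate dehydrogenase, had 43658, 27297 and 26947 at 6 h, against 7174, 9090.3 and 9161 at 4 h (3.77-fold, adjusted p = 1.3e-06). icl-1, the glyoxylate cycle enzyme that lets embryos make sugar from fat, had 10265, 20366 and 12198 at 6 h, against 3733, 2751 and 3358 at 4 h (4.2-fold, adjusted p = 4.9e-05). Isocitrate dehydrogenase, idh-1, went down with 1179.8, 1144 and 796 at 6 h, against 2560.3, 3335 and 3239 at 4 h (a fall of 2.95-fold, adjusted p = 1.1e-05). Groups were apart in each of these genes.

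Fatty acid and lipid binding genes were called in both directions, 11 raised (15.3%) and 7 lowered (9.72%) of 72 tested (11 lowered after median scaling). Over all genes 7.85% were raised and 8.65% lowered, so the lowered share was near that of all genes. The median of the list lay 0.02 above that of all genes. far-1, a secreted fatty acid and retinol binding protein, had 6906, 6906 and 4027 at 6 h, against 718, 405 and 274 at 4 h (13.4-fold, adjusted p = 2.3e-07). The mitochondrial lists had few calls. Of 67 respiratory chain genes 1 was raised (1.49%) and 4 lowered (5.97%, 13 genes after median scaling). Of 55 mitochondrial ribosomal proteins none were raised and 2 lowered (3.64%, 7 genes after median scaling). Of 18 tested vacuolar ATPase genes 4 were lowered (22.2%) and none raised. Nuclear hormone receptors, a large family of ligand-regulated transcription factors, had 18 raised (9.47%) and 1 lowered (0.526%) of 190, and 11 raised after median scaling. The raised share was near the 7.85% of all genes. Among them nhr-132 had 734, 864 and 1059 at 6 h, against 46.6, 55.3 and 115 at 4 h (at least 10.63-fold, adjusted p = 2.0e-05). Among cuticle collagens 4 were raised (3.36% of those tested) and 7 lowered (5.88%), both under the shares of all genes. However, 8 were raised without 4 h replicate C, 1 was raised after median scaling, and 2 were lowered without 4 h replicate A or B. In the cell death list 1 was raised (3.7%) and 5 lowered (18.5%) of 27 (8 lowered after median scaling). The BH3-only gene egl-1, the trigger of programmed cell death, was the raised member, with 2565, 5159.5 and 4517 at 6 h, against 914, 1116 and 877 at 4 h (4.06-fold, adjusted p = 5.3e-04). The excretory and glial list had 2 raised (18.2%) and 1 lowered (9.09%, near the 8.65% of all genes) of 11. In this list exc-9, a LIM protein of the excretory canal, had 14265, 11589.9 and 14789 at 6 h, against 7176, 6038 and 5139 at 4 h (2.22-fold).

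The largest measured fall, 44.5-fold, was on a probe set that matches both T05B4.13 and T05B4.4. A probe set for T05B4.13 alone had 696, 723 and 764 at 6 h, against 29180.1, 36915 and 24651 at 4 h (a fall of 41-fold, adjusted p = 5.2e-04). The stomatin-like gene sto-1 had 751, 465 and 609.8 at 6 h, against 18578, 14631 and 20486 at 4 h (a fall of 29.7-fold, adjusted p = 7.0e-12), and the C-type lectin gene clec-57 had 226, 91.8 and 152 at 6 h, against 3819, 4885 and 3580.3 at 4 h (a fall of 27.7-fold, adjusted p = 0.0026). inx-2, which encodes an innexin of gap junctions, had 1534, 748 and 794 at 6 h, against 16068, 17396 and 14539 at 4 h (a fall of 16.47-fold, adjusted p = 1.5e-10). Of these, T05B4.13 and clec-57 were low at 0 h, with means over the 4 times of 40.1, 27310, 30250 and 728 and of 25.8, 374, 4095 and 157, while inx-2 had 16480, 18920, 16000 and 1025. Among the 12 largest measured falls 3 were F-box genes. fbxc-34 had 1911, 1179 and 1157 at 6 h, against 31326, 27229.5 and 24801 at 4 h (a fall of 20.1-fold, adjusted p = 1.8e-11), fbxb-18 had 373, 212 and 224 at 6 h, against 5769, 5089 and 5125 at 4 h (a fall of 20.4-fold) and fbxb-41 had 384, 110.3 and 357 at 6 h, against 4750.4, 4905 and 4987 at 4 h (a fall of 19.7-fold). F-box proteins present substrates to ubiquitin ligases through Skp1-related adaptors.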

How the data were processed

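Before hybridization the RNA was reverse transcribed and then amplified by PCR, with 20 cycles. The deposited signal intensity was made by the authors with MAS5 (version not given in the sources used here), and every array had a trimmed mean (2% left off at each end) of 500.2 to 500.3. Amplification and the equal trimmed means limit comparisons of total RNA between times. No further scaling was applied. Of 22548 probe sets 20766 matched 1 gene symbol in the platform annotation, 887 several and 895 none, and 20701 of the 20766 were found in RefSeq (WBcel235). No coordinates are given. Log2 signals of all 12 arrays were fitted with limma 3.58.1 in R 4.3.3 (4 time groups, trend and robust estimation), and p-values were adjusted by Benjamini-Hochberg over 18264 probe sets. The design calls the triplicates independent samples. A gene of a list was represented by its brightest probe set, and 188 list members had none of their own. Genes named were the 12 largest measured changes and 8 largest bounds in each direction, up to 6 called members a list and any member of the muscle and lineage lists. Members and lists were chosen with earlier results of these data known. The script was tested on simulated data. Alternatives covered scaling, the reference level, the samples fitted, the variance model, the replicate letter as a block and each array left out.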

Additional observations from a re-analysis of the deposited data

How the results depend on the processing

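Counts of raised and lowered probe sets stayed within 1.5 times of 1412 and 1532 under every alternative run. They were 1998 and 1654 with low signals set to 69.7, 1668 and 1428 with the 6 arrays of 4 h and 6 h alone, 1219 and 1195 without the trend and robust estimation, 1291 and 1270 at a fold of at least 2, and 1044 to 1234 and 1344 to 1630 with single arrays left out. Over the 33 lists together 164 genes were raised, against 132 after median scaling and 133 to 155 with single arrays left out. Of the called genes that the rule names 183 kept their call without each array in turn and 55 lost it at least once, 172 kept it and 66 lost it over all settings, and no direction reversed. Counts of 4 or fewer in a list moved by 1 or more with single arrays in many lists, and should not be compared between lists. Dim signals varied more between replicates: the median SD of log2 signal over all tested probe sets was 0.552 at 6 h and 0.514 at 4 h, and over the 4151 with a geometric mean signal above 500 on the 12 arrays it was 0.278 at 6 h and 0.236 at 4 h.

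Replicate letters were shared between the times, but the deviations of same-letter arrays of 6 h and 4 h from their group means correlated with r of only 0.033, 0.031 and 0.022 (other pairs -0.022 to -0.008). Between these times every array correlated best with its own letter, a hint from the data and not from the design, but between 6 h and 0 h the same-letter correlations were -0.018 to -0.026, and they were negative for B and C between 6 h and 2 h. With the replicate letter as a block 1365 probe sets were raised and 1510 lowered.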

Other observations

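Several gene families, most of them outside the lists, were looked at after their values were seen. Sm proteins form the core of the splicing particles, and 6 of 7 tested snr genes were lowered, with a median log2 change of -1.52. snr-1 had 2136, 862 and 1812 at 6 h, against 9224, 9705 and 8294 at 4 h (a fall of 6.06-fold, adjusted p = 1.1e-07), and snr-7 had 5537, 4683 and 4459.8 at 6 h, against 19226, 19152 and 12651 at 4 h (a fall of 3.43-fold, adjusted p = 6.4e-07). Skp1-related adaptors of ubiquitin ligases fell in 9 of 19 tested skr genes, and none were raised. skr-7 had 1532.6, 846.4 and 1081.4 at 6 h, against 10182, 12677 and 9214 at 4 h (a fall of 9.46-fold, adjusted p = 9.3e-10), and skr-13 had 1263.5, 1045.8 and 866.6 at 6 h, against 8278, 10061 and 7175 at 4 h (a fall of 8.05-fold, adjusted p = 2.8e-10). The 9 lowered genes had median signals of 25870, 6172, 1676 and 443.4 at 0, 2, 4 and 6 h. Of the F-box families, 23 of 94 tested fbxb genes were lowered and 3 raised, and 10 of 40 fbxc genes were lowered and 3 raised. Of 115 fbxa genes 3 were lowered and 6 raised, shares under those of all genes. The tested fbxa genes had a median signal of 72.4 at 4 h, near the reference level of 69.7. Falls could hardly be called among such dim genes, so the low fbxa share does not show that they held steady. The medians at 4 h were 94.77 for all tested fbxb genes and 109.3 for all tested fbxc genes. The lowered fbxb genes had medians of 7892, 3665, 1187 and 175.6 over the 4 times, and the lowered fbxc genes 2026, 2322, 2061 and 271.1. Members of these families resemble each other in sequence, so probe sets may share transcripts.

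Of 11 tested zig genes, which encode proteins with immunoglobulin domains and in part belong to the list of secreted signals, 8 were raised and none lowered, with a median log2 change of 2.19. zig-12 had 3123, 3398 and 2908 at 6 h, against 189, 124 and 186 at 4 h (19.2-fold, adjusted p = 5.3e-04), and zig-4 had 2868, 2874 and 1313 at 6 h, against 500.5, 584 and 408 at 4 h (4.49-fold, adjusted p = 2.6e-04). Of 11 tested galectins, which bind galactosides, 5 lec genes were raised and 1 lowered. lec-2 had 10538, 10454 and 8982 at 6 h, against 219.7, 334 and 255 at 4 h (37.6-fold, adjusted p = 2.0e-05), lec-9 had 3319, 3112 and 2115 at 6 h, against 216, 212 and 308 at 4 h (11.56-fold, adjusted p = 3.0e-05) and lec-8 had 1851, 2779 and 1628 at 6 h, against 226, 183 and 169 at 4 h (10.62-fold, adjusted p = 0.002). Of 31 tested transthyretin-related ttr genes 8 were raised and none lowered, and of 12 lron genes, with leucine-rich repeats, 6 and none.

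Of the raised probe sets 52 were above 69.7 on all 3 arrays of 6 h and on no array of an earlier time. They were therefore tested only through the group in which they are high, and their values are given as a description. F36F2.1 had 6183, 4247 and 5026 at 6 h, against 12, 11.9 and 15.3 at 4 h (at least 73-fold). Of 3 probe sets raised for moc-5, which encodes an enzyme of molybdenum cofactor synthesis, the one with the largest fold was of this kind, with 2088, 2930.4 and 2709 at 6 h, against 30.2, 37.5 and 60.4 at 4 h (at least 36.6-fold). The stomatin-like gene sto-5 had 711, 1001 and 905 at 6 h, against 8.3, 31.2 and 6.5 at 4 h (at least 12.39-fold).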
